A study of Homo sapiens with 12 samples.

Results

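Amino acid transporter genes were taken as the genes of the solute carrier families SLC1, SLC3, SLC6, SLC7, SLC36, SLC38 and SLC43, chosen by symbol alone. The table held 59 of them among 58302 genes: 7 of SLC1, 2 of SLC3, 19 of SLC6, 13 of SLC7, 4 of SLC36, 11 of SLC38 and 3 of SLC43. All 59 were annotated as protein coding. The study grew 2 established cell lines from human pancreatic ductal adenocarcinoma, BxPC-3 and CFPAC-1, and a gemcitabine (GEM)-resistant line from each. GEM is a nucleoside analog given in pancreatic cancer. Of the parental lines, BxPC-3 gave rise to BxPC-3-GR and CFPAC-1 to CFPAC-1-GR, in each case by stepwise exposure to rising GEM concentrations. The methods give higher steps and a higher final concentration for BxPC-3 than for CFPAC-1. Whether GEM was in the medium at harvest is not given in the sources used here. No gene was altered on purpose, and each group had 3 RNA libraries, 12 in all. Each resistant line is 1 derivation of its parent, so the 3 libraries repeat the line and not the selection. The sources do not say whether the replicates were separate cultures, and p-values therefore measure only the spread between these libraries. The labels give RPMI as the medium of all lines, whereas the methods give IMDM for CFPAC-1, so any difference of medium between the lines cannot be told apart from the lines themselves.

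Amino acid carriers move amino acids across the plasma membrane or out of the lysosome. SLC7A5 (LAT1), SLC7A6, SLC7A7, SLC7A8, SLC7A10 and SLC7A11 are light chains that reach the cell surface only when paired with the heavy chain SLC3A2 (CD98). They work as exchangers, so that one amino acid leaves as another enters. SLC1A5 (ASCT2) exchanges glutamine and other neutral amino acids, while SLC38A1 and SLC38A2 accumulate them with sodium and supply glutamine and alanine for exchange. SLC7A11 (xCT) imports cystine for glutathione synthesis in return for glutamate. Several of these genes are known targets of the transcription factor ATF4, which responds to amino acid shortage. Pancreatic cancer cells are known for a high demand for glutamine and cystine.

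The deposited values were FPKM, that is, fragment counts divided by the length of the gene and the depth of the library. The scale is meant to make levels comparable between genes. Levels are given here without a correction for the base composition of transcripts, which changes in some comparisons followed, as described below. Low values were whole multiples of 1 fragment, which gave an implied depth of 12607803 to 25177700 fragments per library, and 1 fragment was worth 0.0073 to 0.0145 FPKM for a gene of the members' median exon length. The top 10 genes held between 12% and 36.3% of a library's FPKM. The 7 epithelial markers, none of them at 0, summed to 838 to 917 FPKM in BxPC-3, 949 to 1016 in its resistant line, 2645 to 2920 in CFPAC-1 and 1162 to 1354 in its resistant line. The 5 immune markers summed to 1.49 to 40.3 FPKM, with PTPRC listed at 0 in all libraries and CD68 at up to 36.9 FPKM. The 4 islet markers summed to at most 0.0113 FPKM, and fibroblast, endothelial and acinar markers to at most 4.00, 0.911 and 0.716 FPKM. The study describes a mesenchymal phenotype of BxPC-3-GR under the microscope, with greater migration and invasion. In RNA, the 6 mesenchymal markers of BxPC-3-GR summed to 28.6 to 30.2 FPKM, below the 46.6 to 52.4 FPKM of BxPC-3. Most of that sum was SNAI2, with means of 23.0 FPKM in BxPC-3-GR and 41.2 FPKM in BxPC-3, and VIM had means of 0.813 and 6.59 FPKM. CDH2, of the same list, went the other way, with means of 5.40 FPKM in BxPC-3-GR and 1.99 FPKM in BxPC-3, and of 28.4 FPKM in CFPAC-1-GR and 11.8 FPKM in CFPAC-1. In CFPAC-1 and its resistant line the mesenchymal sum was 120 to 156 and 85.0 to 98.0 FPKM, and the part of these marker differences in the results was not tested. In bulk RNA, fewer cells with a transcript and less transcript per cell cannot be told apart.

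A small part of the 59 genes carried most of the signal. Only 22 had a mean of at least 1 FPKM over the 12 libraries, and the 5 highest were SLC7A5, SLC1A5, SLC7A1, SLC38A1 and SLC38A2. These 5 took 72.0% to 72.6% of the summed FPKM of the 59 genes in BxPC-3 and 65.6% to 69.2% in BxPC-3-GR. In the CFPAC-1 lines the share ran from 74.7% to 75.0% before and from 66.3% to 67.1% after selection. Summed over all 59 genes, the level was 347.4 ± 3.63 FPKM (mean ± SD, n = 3) in BxPC-3 and 324.5 ± 23.2 FPKM in BxPC-3-GR. It was 267.8 ± 6.27 FPKM in CFPAC-1 and 224.8 ± 16.6 FPKM in CFPAC-1-GR. The plot of FPKM by library shows the replicates of most genes close together, with SLC6A6 in CFPAC-1-GR the clearest exception.

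**Figure D1:**
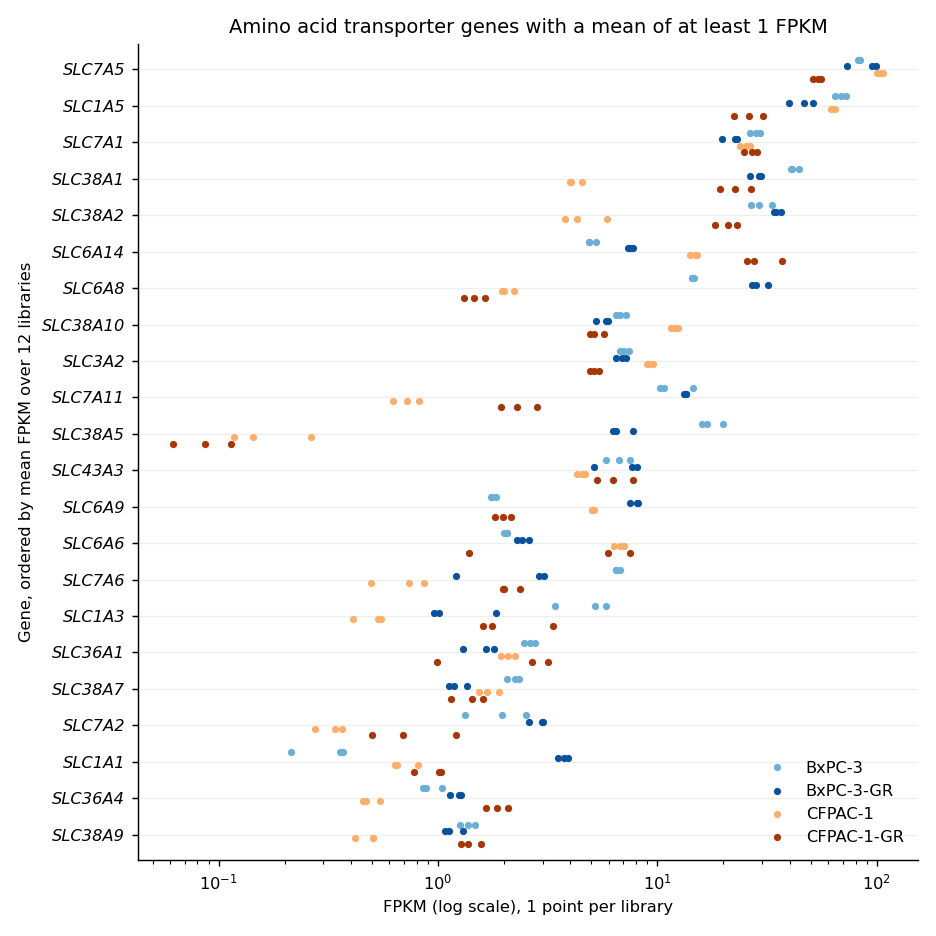
FPKM (log axis) of the 22 amino acid transporter genes that averaged 1 FPKM or more, ordered by that mean, with 1 point for each of the 3 libraries of the parental and resistant BxPC-3 and CFPAC-1 lines. SLC7A5 lies at the top in every group, and SLC38A5 lies between 6.30 and 19.9 FPKM in the BxPC-3 lines but at or below 0.263 FPKM in the CFPAC-1 lines.

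Another 37 members had a mean below 1 FPKM, and the highest value of any of them was 1.44 FPKM, for SLC43A1. Of these, 9 were listed at 0 in every library, among them SLC1A6, SLC6A2, SLC6A5, SLC6A18, SLC7A3, SLC7A13, SLC7A14 and SLC36A3. They include the neuronal carriers of norepinephrine (SLC6A2) and glycine (SLC6A5). SLC38A6 and SLC43A1 reached 1 FPKM in at least 1 library. The other 26 were detected but stayed below 1 FPKM: SLC1A2, SLC1A4, SLC1A7, SLC3A1, SLC6A3, SLC6A4, SLC6A7, SLC6A11, SLC6A12, SLC6A13, SLC6A15, SLC6A16, SLC6A17, SLC6A19, SLC6A20, SLC7A4, SLC7A7, SLC7A8, SLC7A9, SLC7A10, SLC36A2, SLC38A3, SLC38A4, SLC38A8, SLC38A11 and SLC43A2. SLC3A1, the heavy chain of the renal cystine carrier, and its light chain SLC7A9 were both in this low group.

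Each comparison was fitted by limma on log2(FPKM + 1) over all genes whose mean in its libraries reached 1 FPKM, and a gene was called at an adjusted p below 0.05 with an absolute log2FC above 1. This scale understates the change of low genes. The comparisons share libraries, so their calls are not independent of each other.

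To ask which carriers changed with resistance in BxPC-3, BxPC-3-GR was compared with BxPC-3. SLC1A1, a glutamate and cysteine carrier, and SLC6A9, the glycine carrier GlyT1, rose. SLC1A3, a glutamate carrier, SLC38A5, a glutamine carrier, and SLC7A6, an exchanger of arginine and neutral amino acids, fell. SLC7A5, SLC3A2 and SLC7A11 were not called, with log2FC of 0.10, -0.04 and 0.18. Of the 22 members tested, 2 (9.1%, against 4.14% of all 11710 genes tested) were called higher and 3 (13.6%, against 3.62%) lower. The groups did not overlap for 17 members (77.3%), against 66.1% of all genes. The members' median log2FC was -0.0019 and that of all genes -0.045. An adjusted p below 0.05 at any size of change was found for 68.2% of members and 57.7% of all genes.

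In CFPAC-1-GR against CFPAC-1, the glutamine carriers SLC38A1 and SLC38A2 rose 5.46-fold and 4.45-fold in mean FPKM, and SLC1A3 rose. SLC1A5, SLC38A10 and SLC6A9 fell. Of the 18 members tested, 3 (16.7%, against 20.5% of all 12051 genes) were called higher and 3 (16.7%, against 11.7%) lower, and the groups did not overlap for 14 members (77.8%, against 82.1% of all genes). The median log2FC was 0.05 over the members and 0.13 over all genes. The changes in this line followed the GC content of the transcripts, that is, the share of G and C in their sequence. Spearman's rho between log2FC and GC content was -0.856 across the 18 members and -0.777 across 12030 genes, while in the BxPC-3 lines it was -0.177 across 22 members and 0.039 across 11685 genes. These correlations are across genes of the same libraries, which are not independent replicates. The called rises had a GC content of 38.1% to 43.8% and the called falls of 59.6% to 64.3%. After a correction of the log ratios for GC content and length, SLC38A1 was the 1 member still called (1 of 18, against 4.69% of genes higher and 3.97% lower), with a log2FC of 1.001. Whether the GC trend arose in the cells or in the libraries was not tested.

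**Figure D2:**
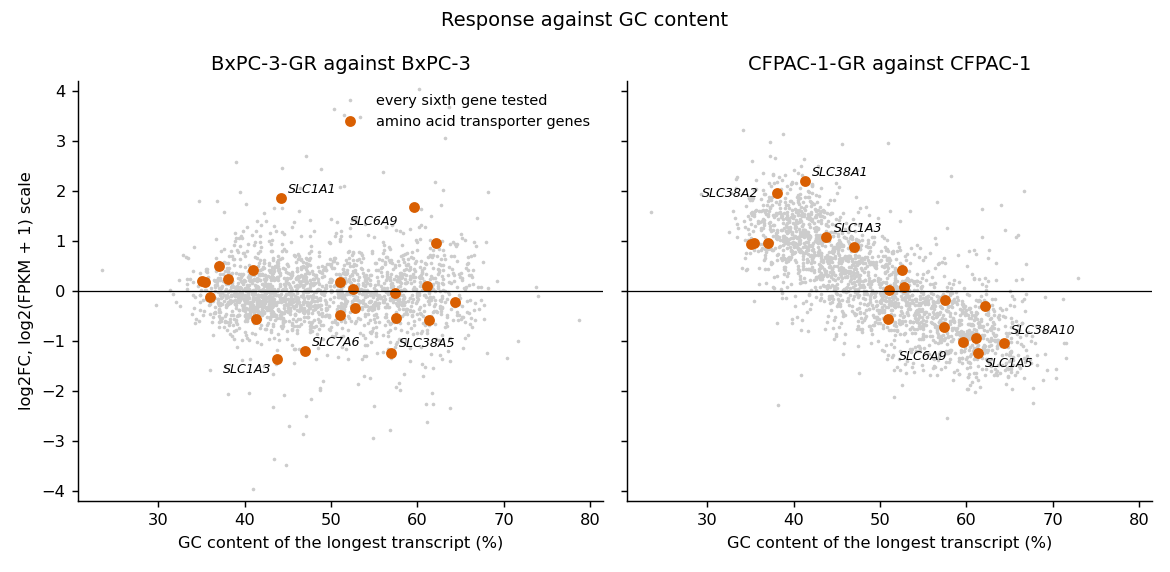
log2FC on the log2(FPKM + 1) scale against the GC content (%) of the longest transcript, for the tested amino acid transporter genes (orange; called members named) and every sixth gene tested (grey), in the BxPC-3 lines (left) and the CFPAC-1 lines (right). The members lie along the falling cloud in the CFPAC-1 lines (rho = -0.856, n = 18) and show little trend in the BxPC-3 lines (rho = -0.177, n = 22).

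Libraries of the CFPAC-1 lines also depended on how they were scaled. The median log2FC of all genes was 0.13 in the deposited values and 0.00084 when libraries were scaled by median of ratios. It was -0.21 when the upper quartile was used. The share of calls that were higher was 63.7%, 52.7% and 36% in that order. With both of these scalings, SLC7A5 was also called lower (-1.10 and -1.37) and SLC1A3 was not called (0.99 and 0.86), whereas SLC38A1, SLC38A2, SLC1A5, SLC38A10 and SLC6A9 had the same calls. The heavy chain SLC3A2 was also called lower by the upper quartile (-1.11).

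**Figure D3:**
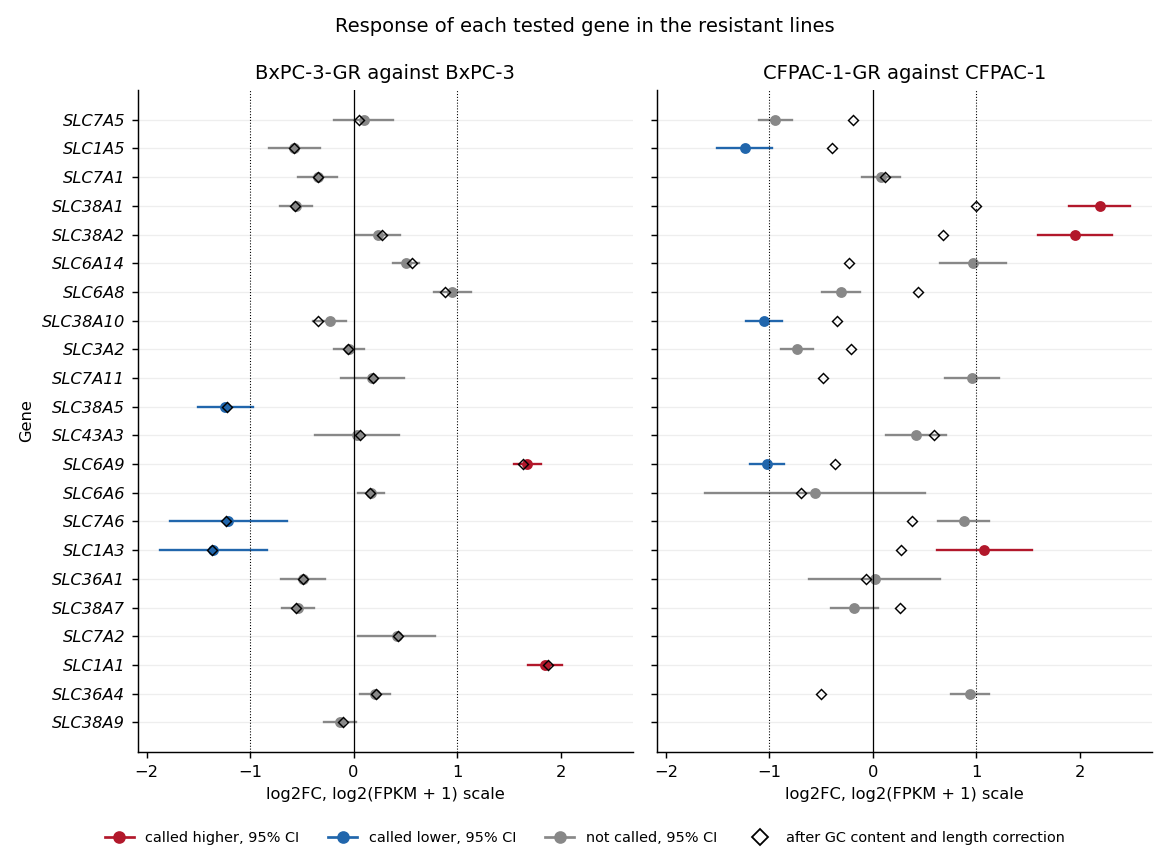
log2FC on the log2(FPKM + 1) scale with 95% confidence intervals for each tested amino acid transporter gene, in BxPC-3-GR against BxPC-3 (left, 22 genes) and CFPAC-1-GR against CFPAC-1 (right, 18 genes); genes with no point were not tested. Open diamonds give the value after the GC content and length correction, which left the 5 calls on the left and SLC38A1 alone of the 6 calls on the right.

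Between the parental lines, BxPC-3 had higher levels of 8 members and lower levels of 3. Of 19 members tested, 8 (42.1%, against 24.7% of 11842 genes) were called higher in BxPC-3: SLC38A5, SLC38A1, SLC7A11, SLC38A2, SLC6A8, SLC7A6, SLC1A3 and SLC7A2. SLC6A14, SLC6A6 and SLC6A9 were called lower (3 of 19, 15.8%, against 19.8% of genes). The median log2FC was 0.25 over the members and 0.10 over all genes. The trend with GC content was also present here, with rho of -0.325 across 19 members and -0.628 across 11821 genes. After the correction, SLC7A2 and SLC6A9 were not called (-0.06 and -0.36) and SLC1A5 was called (1.11). The share of calls that were higher in BxPC-3 was 55.4% as deposited and 43.6% with upper-quartile scaling, under which SLC38A10 was also called lower (-1.002) and SLC7A2 was not called (0.99). SLC7A2 was also not tested without BxPC-3 replicate 2 or 3, when its mean was below 1 FPKM.

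The heavy chain SLC3A2 and its partner SLC7A5 were expressed at unequal levels in every library. SLC7A5 (chr16:87830023-87869488, minus strand; all coordinates are GRCh38) had 83.8, 82.6 and 81.9 FPKM in BxPC-3 and 95.3, 99.5 and 73.2 FPKM in BxPC-3-GR. It had 106.6, 103.7 and 100.2 FPKM in CFPAC-1 and 51.1, 53.7 and 55.5 FPKM in CFPAC-1-GR. The BxPC-3 groups overlapped, while all CFPAC-1-GR libraries lay below all CFPAC-1 libraries, with a log2FC of -0.94 ± 0.07 (SE; adjusted p = 1.76e-05) that missed the fold criterion and was -0.20 after the GC correction. SLC3A2 (chr11:62856102-62888875, plus strand) had 7.06, 7.46 and 6.77 FPKM in BxPC-3 and 7.18, 6.92 and 6.50 FPKM in BxPC-3-GR. It had 9.50, 9.17 and 8.99 FPKM in CFPAC-1 and 4.95, 5.41 and 5.16 FPKM in CFPAC-1-GR. Again the BxPC-3 groups overlapped and the CFPAC-1 groups did not, with a log2FC of -0.73 ± 0.06 (adjusted p = 4.69e-05; -0.21 after the GC correction) that was not called. The ratio of SLC7A5 to SLC3A2 was 11.7 ± 0.531 in BxPC-3, 12.97 ± 1.58 in BxPC-3-GR, 11.2 ± 0.077 in CFPAC-1 and 10.3 ± 0.419 in CFPAC-1-GR (mean ± SD, n = 3). The pseudogenes SLC7A5P1 and SLC7A5P2, copies of part of SLC7A5, reached 2.51 and 0.384 FPKM, and how reads shared with them were counted is not given in the sources used here.

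SLC7A11, the cystine light chain, was called between the parental lines but within neither line. It had 10.3, 10.7 and 14.5 FPKM in BxPC-3 and 13.5, 13.4 and 13.3 FPKM in BxPC-3-GR. In CFPAC-1 it had 0.720, 0.820 and 0.624 FPKM, and in CFPAC-1-GR 2.83, 1.94 and 2.30 FPKM. The BxPC-3 and CFPAC-1 libraries were far apart, 16.4-fold in the mean (log2FC = 2.89 ± 0.13, adjusted p = 1.77e-06; 1.45 after the GC correction, still called). Within the BxPC-3 lines the groups overlapped. Within the CFPAC-1 lines they did not, and the log2FC of 0.96 ± 0.11 (adjusted p = 1.66e-04) missed the fold criterion as deposited and was -0.48 after the GC correction; without CFPAC-1-GR replicate 2 it was 1.05 and called. SLC7A11 has a GC content of 35.4%, among the lowest of the members. An antisense gene, SLC7A11-AS1, shares 9.0% of its exon bases and had at most 0.108 FPKM.

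SLC7A6 (chr16:68264516-68301823, plus strand) encodes the light chain y+LAT2. It had 6.45, 6.73 and 6.46 FPKM in BxPC-3, and 3.05, 2.89 and 1.21 FPKM in BxPC-3-GR. It had 0.736, 0.861 and 0.493 FPKM in CFPAC-1 and 1.99, 1.98 and 2.37 FPKM in CFPAC-1-GR. BxPC-3 was the highest group and no groups of 1 line overlapped. The gene fell in BxPC-3-GR (log2FC = -1.21 ± 0.23, adjusted p = 0.00511), but replicate 3 had the lowest level of that group, and without it the log2FC was -0.93 and not called. In CFPAC-1-GR the log2FC was 0.88 ± 0.10 (adjusted p = 1.87e-04 by limma), not called, and was 0.38 after the GC correction. A gene on the opposite strand, SLC7A6OS, covers 44.4% of the exon bases of SLC7A6. SLC7A6OS had group means of 2.20, 2.43, 2.36 and 2.91 FPKM in BxPC-3, its resistant line, CFPAC-1 and its resistant line, and since strand use in counting is not given in the sources used here, reads of these overlapping genes cannot be told apart.

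The system A carriers SLC38A1 and SLC38A2 lay next to each other on chromosome 12, 88.2 kb apart, and had the largest log2FC in CFPAC-1-GR among the members tested on the log2(FPKM + 1) scale. In mean FPKM, SLC1A3 rose 4.50-fold, between SLC38A1 and SLC38A2. SLC38A1 (chr12:46183063-46270017, minus strand) had 40.8, 41.2 and 44.1 FPKM in BxPC-3 and 28.9, 29.6 and 26.5 FPKM in BxPC-3-GR. In CFPAC-1 it had 4.02, 4.55 and 4.00 FPKM, and in CFPAC-1-GR 26.8, 19.2 and 22.6 FPKM. All CFPAC-1-GR libraries lay above all CFPAC-1 libraries, and BxPC-3 was the highest group. The rise in the CFPAC-1 lines was 2.19 ± 0.12 (log2FC ± SE, adjusted p = 8.56e-06; 1.001 after the GC correction), while the value in the BxPC-3 lines was -0.55 ± 0.06 (adjusted p = 5.89e-04), below the fold criterion. SLC38A2 (chr12:46358189-46372867, minus strand), which cells induce on amino acid shortage, had 26.7, 28.9 and 33.3 FPKM in BxPC-3 and 34.6, 34.1 and 36.5 FPKM in BxPC-3-GR. In CFPAC-1 it had 4.32, 5.88 and 3.79 FPKM, and in CFPAC-1-GR 23.1, 18.3 and 20.9 FPKM. CFPAC-1 was the low group for both genes, and its libraries overlapped with no other group. SLC38A2 rose in CFPAC-1-GR by 1.95 ± 0.15 (adjusted p = 2.57e-05), but after the GC correction the value was 0.68 and not called. The third system A gene, SLC38A4, lies 391.9 kb further along and stayed at or below 0.61 FPKM.

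Sequence upstream of the annotated starts is shown for SLC38A1 and SLC38A2, as the neighbouring pair that rose in CFPAC-1-GR, and for SLC1A3 and SLC7A6, which hold a searched motif. RefSeq promoters (GRCh38.p14) were available for 44 of the 59 members, with 66 starts in all. In the 250 bases before each start, both strands were searched for TGATGNAA, the core of the amino acid response element that C/EBP and ATF proteins bind, and TGACNNNGC, the antioxidant response element. Neither motif overlapped the other in the stretches below. Bases that GENCODE annotates as exon are left out. Capitals mark a motif, and all runs read 5′ to 3′ along the gene.
SLC38A1, chr12:46267988-46268237, minus strand, inside the deposited gene but outside its annotated exons: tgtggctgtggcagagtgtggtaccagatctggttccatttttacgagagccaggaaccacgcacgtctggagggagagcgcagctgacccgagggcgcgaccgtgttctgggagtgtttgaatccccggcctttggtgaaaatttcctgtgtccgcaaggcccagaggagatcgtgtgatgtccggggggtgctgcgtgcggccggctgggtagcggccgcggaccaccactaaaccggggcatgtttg
SLC38A2, chr12:46372868-46373023, minus strand, directly upstream of the gene: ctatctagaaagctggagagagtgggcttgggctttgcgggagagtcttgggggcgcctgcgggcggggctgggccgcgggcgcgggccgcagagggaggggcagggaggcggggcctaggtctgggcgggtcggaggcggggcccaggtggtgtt
SLC1A3, chr5:36596338-36596587, plus strand, before a RefSeq start upstream of the deposited gene: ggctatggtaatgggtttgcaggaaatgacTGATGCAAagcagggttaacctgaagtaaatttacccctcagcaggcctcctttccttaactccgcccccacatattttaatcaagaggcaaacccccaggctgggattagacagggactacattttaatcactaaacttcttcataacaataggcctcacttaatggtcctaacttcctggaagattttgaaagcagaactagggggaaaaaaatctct
SLC7A6, chr16:68264276-68264515, plus strand, directly upstream of the gene: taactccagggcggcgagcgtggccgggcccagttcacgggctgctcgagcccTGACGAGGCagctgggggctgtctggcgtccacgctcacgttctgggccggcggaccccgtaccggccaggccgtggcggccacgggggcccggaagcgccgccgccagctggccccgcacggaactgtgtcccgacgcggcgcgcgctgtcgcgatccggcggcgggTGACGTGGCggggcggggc

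Neither of the SLC38A1 and SLC38A2 stretches held a match, and the 250 bases before the other SLC38A1 start held none either. Bases outside these windows were not searched, so the result does not show that the genes lack the elements. SLC7A11 had no promoter entry and was not searched. Of the 66 member starts, 2 (3.0%) held the amino acid response core, against 3.14% of 35116 RefSeq starts, and those were 1 start each of SLC1A3 and SLC1A5. The antioxidant element was found before 6 starts (9.1%, against 10.91% of all), of SLC1A3, SLC1A5, SLC3A2, SLC7A1, SLC7A6 and SLC7A7. SLC7A6 held 2 matches, at 197 to 189 and 29 to 21 bases upstream. The window of SLC38A2 had a GC content of 73.6% and the windows of SLC38A1 61.6% for the start shown and 42.4% for the other, against a median of 58.0% over all starts. The transcripts of SLC38A2 and SLC38A1 had 38.1% and 41.3%.

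SLC1A5, the ASCT2 exchanger (chr19:46774883-46788594, minus strand), had the second highest mean over the 12 libraries, but lay below SLC7A5, SLC6A14 and SLC7A1 in CFPAC-1-GR. It had 72.5, 68.9 and 64.4 FPKM in BxPC-3 and 46.8, 51.2 and 39.9 FPKM in BxPC-3-GR. In CFPAC-1 it had 61.9, 64.1 and 62.2 FPKM and in CFPAC-1-GR 30.3, 22.3 and 26.1 FPKM. In both lines the resistant libraries lay below all parental ones. The log2FC was -0.57 ± 0.10 (adjusted p = 0.00365) in the BxPC-3 lines, below the fold criterion. SLC1A5 fell in CFPAC-1-GR, 2.39-fold in the mean (log2FC = -1.24 ± 0.11, adjusted p = 5.03e-05), and had -0.39 after the GC correction, not called. An opposite-strand transcript, AC008622.2, shares 23.4% of its exon bases.

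Of the glutamate carriers of the SLC1 family, SLC1A3 differed in direction between the lines, and SLC1A1 had a higher mean in both resistant lines. SLC1A1 (EAAT3; chr9:4490444-4587469, plus strand) had 0.214, 0.356 and 0.368 FPKM in BxPC-3 and 3.53, 3.76 and 3.93 FPKM in BxPC-3-GR. In CFPAC-1 it had 0.635, 0.812 and 0.653 FPKM and in CFPAC-1-GR 0.778, 1.01 and 1.03 FPKM, too low to be tested there, and these 2 groups overlapped. BxPC-3-GR stood above every other group, 11.96-fold above BxPC-3 in mean FPKM (log2FC = 1.85 ± 0.07, adjusted p = 9.22e-06). SLC1A3 (EAAT1; chr5:36606355-36688334, plus strand) had 5.18, 3.40 and 5.82 FPKM in BxPC-3 and 1.83, 0.954 and 1.01 FPKM in BxPC-3-GR. In CFPAC-1 it had 0.552, 0.531 and 0.411 FPKM and in CFPAC-1-GR 3.35, 1.77 and 1.61 FPKM. The groups of each line did not overlap, but the order was opposite. SLC1A3 fell in BxPC-3-GR (log2FC = -1.35 ± 0.21, adjusted p = 0.00218) and rose in CFPAC-1-GR (1.07 ± 0.19, adjusted p = 0.00165), where it had 0.27 and no call after the GC correction. Without CFPAC-1-GR replicate 1, the highest library, its mean over the CFPAC-1 lines was below 1 FPKM and it was not tested.

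SLC38A5 (SNAT5; chrX:48458537-48470256, minus strand), a system N carrier of glutamine, serine and glycine, had the largest difference between the parental lines of the 19 members tested. It had 19.9, 15.9 and 16.8 FPKM in BxPC-3 and 6.46, 7.75 and 6.30 FPKM in BxPC-3-GR. It had 0.263, 0.143 and 0.117 FPKM in CFPAC-1 and 0.0621, 0.114 and 0.0871 FPKM in CFPAC-1-GR. No pair of groups overlapped. The BxPC-3 mean was 100.3-fold that of CFPAC-1 (log2FC = 3.98 ± 0.10, adjusted p = 2.1e-07; 4.69 after the GC correction), and the level fell 2.56-fold in BxPC-3-GR (-1.24 ± 0.11, adjusted p = 2.05e-04). SLC38A10 (chr17:81245000-81295547, minus strand), a carrier inside cells, had 7.21, 6.74 and 6.49 FPKM in BxPC-3 and 5.92, 5.85 and 5.24 FPKM in BxPC-3-GR. It had 11.5, 12.03 and 12.4 FPKM in CFPAC-1 and 5.13, 4.95 and 5.73 FPKM in CFPAC-1-GR. CFPAC-1 was the highest group, and SLC38A10 fell in CFPAC-1-GR (-1.05 ± 0.07, adjusted p = 1.79e-05), with -0.35 and no call after the GC correction. Its GC content, 64.3%, was the highest of all members.

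In the SLC6 family, SLC6A9 took opposite directions in the lines. SLC6A9 (GlyT1; chr1:43991500-44031467, minus strand) had 1.74, 1.84 and 1.76 FPKM in BxPC-3 and 8.10, 8.15 and 7.52 FPKM in BxPC-3-GR. It had 5.03, 5.03 and 5.15 FPKM in CFPAC-1 and 1.82, 2.16 and 1.98 FPKM in CFPAC-1-GR. Replicates lay close together and the groups of each line were far apart. SLC6A9 rose 4.44-fold in BxPC-3-GR (log2FC = 1.68 ± 0.05, adjusted p = 5.13e-06) and fell 2.55-fold in CFPAC-1-GR (-1.02 ± 0.07, adjusted p = 1.49e-05). The fall was not called after the GC correction (-0.37), nor without CFPAC-1-GR replicate 1 (-0.98). SLC6A8, the creatine carrier (chrX:153688099-153696593, plus strand), had 14.4, 14.7 and 14.4 FPKM in BxPC-3 and 27.0, 28.1 and 32.04 FPKM in BxPC-3-GR. It had 2.21, 2.001 and 1.95 FPKM in CFPAC-1 and 1.32, 1.63 and 1.46 FPKM in CFPAC-1-GR. BxPC-3-GR was highest, 2.01-fold above BxPC-3, and its log2FC of 0.96 ± 0.07 (adjusted p = 1.19e-04) missed the fold criterion. It was 1.004 and called with median-of-ratios scaling, and 1.005 and called when BxPC-3-GR replicate 1 was left out. In the CFPAC-1 lines it was -0.31 ± 0.08 as deposited and 0.44 after the GC correction. SLC6A10P, a copy of SLC6A8, reached 0.127 FPKM.

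SLC6A14, a broad carrier of neutral and cationic amino acids, had group means of 5.00 ± 0.209 FPKM in BxPC-3, 7.53 ± 0.230 in BxPC-3-GR, 14.7 ± 0.575 in CFPAC-1 and 30.03 ± 5.95 in CFPAC-1-GR (SD, n = 3). Its log2FC was 0.51 ± 0.05 in the BxPC-3 lines and 0.97 ± 0.13 in the CFPAC-1 lines, neither called, and the latter was -0.23 after the GC correction. Without CFPAC-1-GR replicate 2 or 3 it was 1.07 or 1.02 and called. The taurine carrier SLC6A6 had 5.93, 1.38 and 7.54 FPKM in CFPAC-1-GR, against a CFPAC-1 mean of 6.68 ± 0.351 FPKM. Replicate 2 stood apart from the other two, and the log2FC of -0.56 ± 0.45 was within the spread (adjusted p = 0.279). In the BxPC-3 lines its mean was 2.05 FPKM in BxPC-3 and 2.43 FPKM in BxPC-3-GR.

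SLC7A1, the main arginine and lysine carrier (chr13:29509410-29595688, minus strand), ranked among the 5 most abundant members and was not called in any comparison. It had 26.4, 28.2 and 29.3 FPKM in BxPC-3 and 23.0, 22.6 and 19.7 FPKM in BxPC-3-GR. It had 23.9, 26.5 and 25.2 FPKM in CFPAC-1 and 26.9, 24.9 and 28.4 FPKM in CFPAC-1-GR. Resistant and parental libraries overlapped in the CFPAC-1 lines but not in the BxPC-3 lines, with a log2FC of -0.35 ± 0.08 (adjusted p = 0.00887). The related SLC7A2 had group means of 1.94, 2.87, 0.326 and 0.798 FPKM in BxPC-3, its resistant line, CFPAC-1 and its resistant line.

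The remaining members above a mean of 1 FPKM are mostly carriers of the lysosome, and SLC36A1, SLC36A4, SLC38A7 and SLC43A3 were tested and not called within either line. SLC36A1, which exports amino acids from the lysosome with protons, had group means between 1.59 and 2.62 FPKM. SLC36A4 had means of 0.490 FPKM in CFPAC-1 and 1.86 FPKM in CFPAC-1-GR (log2FC = 0.94 ± 0.08, not called, and -0.50 after the GC correction). The lysosomal glutamine carrier SLC38A7 had means between 1.22 and 2.21 FPKM. SLC38A9, the arginine sensor of mTORC1, had means of 1.37 FPKM in BxPC-3 and 1.16 FPKM in BxPC-3-GR, not called. It had 0.477 FPKM in CFPAC-1 and 1.41 FPKM in CFPAC-1-GR with no overlap, too low to be tested there. With a pseudocount of 0.1 and no filter, an alternative chosen after seeing the data, SLC38A9 was called higher in CFPAC-1-GR (1.38, adjusted p = 4.42e-04). SLC38A9 has a GC content among the lowest of the members, and this call has no GC-corrected value. For the difference in response between the lines, tested below, SLC38A9 had 0.83 as deposited and -0.55 after the GC correction, neither called. SLC43A3, a purine carrier, had means between 4.51 and 6.96 FPKM.

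Whether the response differed between the lines was tested by an interaction term over all 12 libraries, as the response in the CFPAC-1 lines minus that in the BxPC-3 lines. The resistant lines were selected at different GEM concentrations, and in this difference the concentration cannot be told apart from the line. Of 22 members, 5 (22.7%, against 23.6% of 12210 genes) were called with a higher response in the CFPAC-1 lines: SLC38A1 (2.74 ± 0.14), SLC1A3 (2.43 ± 0.31), SLC7A6 (2.09 ± 0.27), SLC38A2 (1.71 ± 0.19) and SLC38A5 (1.13 ± 0.13). A lower response there was called for 4 (18.2%, against 14.4%): SLC6A9 (-2.70 ± 0.08), SLC1A1 (-1.66 ± 0.11), SLC6A8 (-1.26 ± 0.10) and SLC7A5 (-1.04 ± 0.14). After the GC correction SLC38A1, SLC1A3, SLC7A6, SLC38A5, SLC6A9 and SLC1A1 were still called, while SLC38A2, SLC6A8 and SLC7A5 were not (0.45, -0.42 and -0.22) and SLC7A2 was (-1.13). SLC7A5 was also not called without BxPC-3-GR replicate 1 (-0.99) or 2 (-0.96). For SLC38A5 the call comes with levels below 0.3 FPKM in the CFPAC-1 lines, and with a pseudocount of 0.1 the value was 0.82 and not called. The higher calls were 62.1% of all calls in the deposited values, 46.9% after scaling by median of ratios and 39.4% by the upper quartile, with medians over all genes of 0.22, -0.02 and -0.14. Both scalings added a lower call for SLC38A10 (-1.10 and -1.25), and the upper quartile added SLC1A5 (-1.13) and SLC3A2 (-1.11). SLC6A6 was called (-1.09) when CFPAC-1-GR replicate 3 was left out, which kept replicate 2, the library with the outlying value. With 1 library left out at a time, its value ran from -1.09 to -0.17, and with all 12 it was -0.73 and not called.

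**Figure D4:**
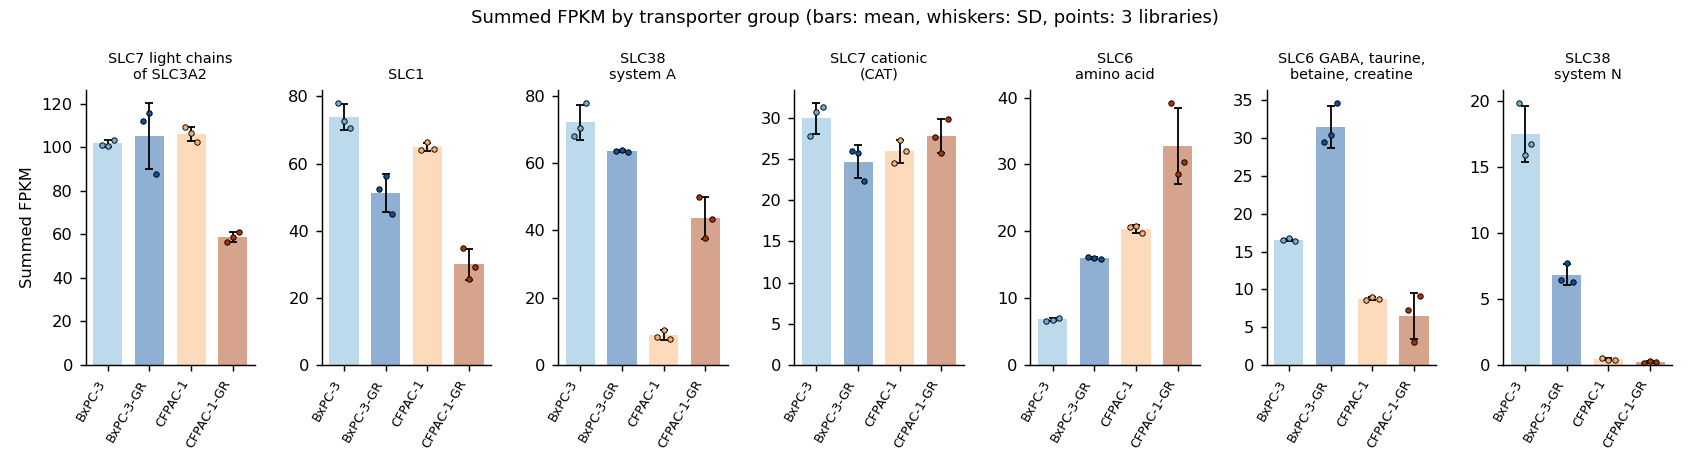
Summed FPKM of 7 groups of amino acid transporter genes by role, as mean (bars), SD (whiskers) and the 3 libraries (points) of each line; each panel has its own axis from 0. The system A carriers sum to 8.88 FPKM in the CFPAC-1 parent and 43.7 FPKM in its resistant line, and the light chains of SLC3A2 to 106.2 and 58.8 FPKM. The sums are of deposited values, without the GC correction.

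Summed by role, the levels describe how the makeup of the carriers differed. The 3 system A genes summed to 72.2 ± 5.18 FPKM in BxPC-3, 63.5 ± 0.292 in its resistant line, 8.88 ± 1.42 in CFPAC-1 and 43.7 ± 6.15 in its resistant line (SD, n = 3). The 6 light chains of SLC3A2 summed to 101.8 ± 1.51, 105.2 ± 15.2, 106.2 ± 3.38 and 58.8 ± 2.25 FPKM in the same order. The SLC6 carriers of GABA, taurine, betaine and creatine went from 16.6 ± 0.15 to 31.5 ± 2.77 FPKM in the BxPC-3 lines, nearly all of it SLC6A8. The plot of summed FPKM shows both resistant lines with a lower SLC1 sum, of 73.9 and 51.2 FPKM in the BxPC-3 lines and 64.9 and 29.98 FPKM in the CFPAC-1 lines. SLC1A5 made up most of it, with means of 62.8 FPKM in CFPAC-1 and 26.2 FPKM in CFPAC-1-GR. All sums are of deposited values without the GC correction. With it, the log2FC in CFPAC-1-GR was -0.39 for SLC1A5, -0.20 for SLC7A5 and 0.68 for SLC38A2, none called. SLC38A1 was still called (1.001).

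Other genes of amino acid use were read from 7 lists. Their counts stand against 4.14% of all genes called higher and 3.62% lower in BxPC-3-GR, and 20.5% higher and 11.7% lower in CFPAC-1-GR. In the amino acid response, 3 of 12 tested genes rose in BxPC-3-GR and 1 fell. DDIT4, an inhibitor of mTORC1, had a log2FC of 1.66 (20.2 to 66.1 FPKM), SESN2, a leucine sensor, 1.56 (3.27 to 11.6 FPKM), and the ATF4 target TRIB3 1.19 (2.01 to 5.81 FPKM). ATF5 fell (-1.40, 18.9 to 6.58 FPKM). In CFPAC-1-GR, 4 of 14 rose (among them XPOT at 1.72, EIF2S1 at 1.21 and CEBPG at 1.18) and TRIB3 fell (-1.67, 29.1 to 8.46 FPKM), and none of these was called after the GC correction. The list's median log2FC was 0.23 in the BxPC-3 lines and -0.16 in the CFPAC-1 lines, against -0.045 and 0.13 over all genes.

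Among serine, glycine and proline synthesis genes, PHGDH, the first enzyme of serine synthesis, rose in BxPC-3-GR (1.36, 1.40 to 5.15 FPKM; 1 of 9 higher, 0 lower). It fell in CFPAC-1-GR (-1.002, 5.35 to 2.17 FPKM), as did PYCR1 (-1.48) and SHMT2 (-1.31), 3 of 9 in all, and PHGDH was still called after the GC correction (-1.05). In glutamine, glutamate and aspartate metabolism, GLUL, glutamine synthetase, rose (1.08) and the mitochondrial transaminase GOT2 fell (-1.35) in BxPC-3-GR, out of 12. In CFPAC-1-GR, 2 of 11 rose (among them PPAT at 1.44) and 2 fell (ASL at -1.51 and CAD at -1.24). None of the 4 called genes was called after the correction, when ASS1, the enzyme before ASL in arginine synthesis, was called higher.

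For branched-chain amino acid and arginine use, 0 of 7 tested genes were called in the BxPC-3 lines. In CFPAC-1-GR, BCAT1 (1.91, 4.203 to 18.7 FPKM) and OAT (1.23) rose and BCAT2 (-1.25) and BCKDK (-1.09) fell, out of 8. In the glutathione list, GGT1, which cleaves glutathione outside the cell, rose in BxPC-3-GR (1.24, 0.383 to 2.27 FPKM; 1 of 9). GCLC (1.56), the rate-limiting enzyme of glutathione synthesis, and TXNRD1 (1.45) rose and GPX4 (-1.37) fell in CFPAC-1-GR, out of 10. Of amino acid sensing genes at the lysosome, 1 of 26 was called in BxPC-3-GR, RPTOR, the mTORC1 scaffold (-1.42, 5.95 to 1.60 FPKM). In CFPAC-1-GR, 4 of 22 rose and 6 fell (against 20.5% and 11.7% of all genes), with the largest changes in LAMTOR4 (-1.69), WDR24 (-1.64), FNIP1 (1.62) and NPRL3 (-1.31). After the GC correction no gene of these 3 lists was called in the CFPAC-1 lines. Of the amino acid carriers outside the 7 families, 0 of 11 and 0 of 12 tested genes were called in the BxPC-3 and the CFPAC-1 lines. Against the same medians over all genes, the lists after the amino acid response had these medians in the BxPC-3 and the CFPAC-1 lines. They were 0.02 and -0.37 for serine, glycine and proline synthesis and 0.11 and 0.16 for glutamine, glutamate and aspartate metabolism. They were -0.04 and -0.11 for branched-chain amino acid and arginine use and 0.31 and 0.34 for glutathione. Amino acid sensing had medians of -0.28 and -0.24, and the carriers outside the 7 families -0.18 and -0.17.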

How the data were processed

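RNA was sequenced from the 4 lines in 3 libraries each. The authors deposited FPKM per gene in 1 table for all 12 libraries; the submitters' processing notes name Trimmomatic 0.27, FastQC 0.10.1 and TopHat2 2.0.8, and both hg19 and GRCh38. The deposited spans of 57 of the 59 members matched GENCODE 29 on GRCh38. The counting program and its use of strand are not given in the sources used here. In genes with 1 transcript, 98.8% to 99.5% of low values were whole multiples of 1 fragment within 0.05 fragment, which gave the implied depths.

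Groups came from the labels. Genes that averaged 1 FPKM or more over the compared libraries were tested on log2(FPKM + 1) with limma 3.58.1 in R 4.3.3, with Benjamini-Hochberg adjustment over all genes tested, and p-values adjusted this way are two-sided. Log ratios were corrected for GC content and length by splines with 5 degrees of freedom. Alternatives were a pseudocount of 0.1, no filter, median-of-ratios and upper-quartile scaling, the GC correction, the replicate number as a block, the treat test against a log2FC of 1, a mean trend in the prior variance, all 12 libraries in 1 fit, each library left out, and, chosen after seeing the data, a pseudocount of 0.1 with no filter. The fit was tested on simulated data.

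Members, lists and tests were chosen with earlier results of these data known. Values in every library are given for members called in a resistant line or in the interaction, the 5 most abundant, SLC3A2 and SLC7A11, and list genes are named up to 4 for each comparison by size of change. Values for other members are means or ranges. SLC6A6 in the CFPAC-1-GR libraries, and members below 1 FPKM named in the closing section, were chosen after their values were seen. Promoter sequences and motif counts came from RefSeq on GRCh38.p14, and 15 members without an entry were not searched. Some genes are not reported here by name.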

Additional observations from a re-analysis of the deposited data

Results flagged for a closer look

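The response to resistance differed between the lines for 9 members by the interaction test of limma, as log2FC in the CFPAC-1 lines minus log2FC in the BxPC-3 lines, with an adjusted p beside each value. The differences above 0 were 2.74 for SLC38A1 (adjusted p = 3.56e-08 by limma), 2.43 for SLC1A3 (adjusted p = 2.9e-05), 2.09 for SLC7A6 (adjusted p = 3.24e-05), 1.71 for SLC38A2 (adjusted p = 7.99e-06) and 1.13 for SLC38A5 (adjusted p = 1.43e-05). Those below 0 were -2.7 for SLC6A9 (adjusted p = 1.24e-09 by limma), -1.66 for SLC1A1 (adjusted p = 1.24e-07), -1.26 for SLC6A8 (adjusted p = 7.75e-07) and -1.04 for SLC7A5 (adjusted p = 3.9e-05). The 5 values above 0 (22.7% of 22 members) and the 4 below 0 (18.2%) stand against 23.6% and 14.4% of all genes tested. SLC1A3 and SLC6A9 were called in opposite directions in the lines, and no library of a resistant line overlapped its parent for either gene. Across the 22 members these differences had a Spearman's rho of -0.617 with GC content, and across 12184 genes of -0.696. After the GC correction SLC38A2, SLC6A8 and SLC7A5 were not called (0.45, -0.42 and -0.22), and SLC7A2 was (-1.13). SLC38A5 had a lower mean FPKM in both resistant lines, 2.56-fold in BxPC-3-GR and 1.99-fold in CFPAC-1-GR. Its difference was not called with a pseudocount of 0.1.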

How the results depend on the processing

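The GC correction left the number of calls in the BxPC-3 lines at 5 and lowered that in the CFPAC-1 lines, while the treat test lowered both. Of 5 members called in the BxPC-3 lines, the treat test against 1 left 2, and a pseudocount of 0.1 with no filter gave 8, with more genes tested. Over all genes that last setting called 1552 higher and 1217 lower of 28777, against 485 and 424 of 11710 as reported. The treat test called 227 and 153 of 11710. Of 6 in the CFPAC-1 lines, a pseudocount of 0.1 gave 10 and with no filter 13, the treat test left 2 and the GC correction left 1. Over all genes, 2473 were called higher and 1407 lower of 12051 as reported, and 3396 and 1969 with the pseudocount of 0.1. With no filter as well, the calls were 6154 and 2355 of 29966. The treat test called 1416 and 643 of 12051, and the GC correction 564 and 478 of 12030. The pseudocount of 0.1 with no filter gave 21 calls between the parental lines (11 as reported) and 16 in the interaction (9 as reported). Over all genes it called 6134 higher and 4884 lower of 29350 between the parental lines (2924 and 2350 of 11842 as reported). In the interaction the calls were 6468 and 3090 of 32947 genes (2885 and 1758 of 12210 as reported). The other scalings, the mean trend, the single fit and the missing filter kept each count within 1.5 times. With 1 library left out at a time, the counts were 4 to 6 in the BxPC-3 lines, 4 to 8 in the CFPAC-1 lines, 10 to 11 between the parental lines and 8 to 10 in the interaction. Over all genes, 442 to 525 were then called higher and 405 to 456 lower in the BxPC-3 lines. The calls were 2278 to 2566 and 1336 to 1511 in the CFPAC-1 lines, and 2743 to 3048 and 2212 to 2458 between the parental lines. For the interaction, 2745 to 2933 and 1681 to 1836 genes were called. SLC7A2 changed sign after the GC correction, to -0.058 between the parental lines and -1.13 in the interaction, and the cause was not tested. Values with no call before or after it also changed sign, among them SLC7A5 (0.54) and SLC3A2 (0.31) between the parental lines and SLC7A11 (-0.62), SLC36A4 (-0.66) and SLC38A9 (-0.55) in the interaction. Same-numbered libraries did not deviate together (correlations of -0.134 to 0.0895). Whether same-numbered samples were handled together is not given in the sources used here. With the replicate block the counts stayed at 5, 6, 11 and 9, and the block with the GC correction gave 5, 1, 10 and 7, with the same SLC7A2 values. Precision was limited by 3 libraries a group, and for members below 0.1 FPKM by the worth of 1 fragment.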

Other observations

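Below a mean of 1 FPKM, several carriers differed between groups without entering the tests above. The values below come from a fit with a pseudocount of 0.1 and no filter on low values, and these genes were chosen after their values were seen. Over all genes, this fit called 1552 higher and 1217 lower of 28777 in BxPC-3-GR, and 6154 and 2355 of 29966 in CFPAC-1-GR. SLC6A20, a proline carrier, had 0.0126 to 0.0278 FPKM in BxPC-3 and 0.525 to 0.585 FPKM in BxPC-3-GR (log2FC = 2.43, adjusted p = 9.73e-05 by limma). SLC7A8 (LAT2), another light chain of SLC3A2, had 0.550 to 0.650 FPKM in BxPC-3 and 0.0473 to 0.0837 FPKM in BxPC-3-GR (-2.10, adjusted p = 3.08e-04), while SLC7A5 had no call there. The system A gene SLC38A4 was also called lower in BxPC-3-GR (-1.24, adjusted p = 0.00527 by limma), with means of 0.495 FPKM in BxPC-3 and 0.152 FPKM in BxPC-3-GR. SLC43A1 (LAT3), a carrier of branched-chain amino acids, had 0.978 to 1.44 FPKM in CFPAC-1 and 0.303 to 0.359 FPKM in CFPAC-1-GR (-1.53, adjusted p = 7.28e-04). SLC7A2, not tested above in the CFPAC-1 lines, was called higher in CFPAC-1-GR (1.004, adjusted p = 0.0397 by limma), as was SLC38A9, given above. Changes in the CFPAC-1 lines followed GC content, which is 58.2% for SLC43A1 and 41.0% for SLC7A2. Neither of these changes has a GC-corrected value.

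Some of the low members were near 0 or at 0 in the BxPC-3 lines and higher in the CFPAC-1 lines. SLC43A1 stayed at or below 0.0631 FPKM in the 6 BxPC-3 and BxPC-3-GR libraries. SLC38A3, a system N glutamine carrier, and SLC6A17 were listed at 0 in those 6 libraries, and had 0.107 to 0.288 and 0.230 to 0.344 FPKM in the CFPAC-1 and CFPAC-1-GR libraries. Not all low members went this way. SLC38A4 had 0.434 to 0.610 FPKM in BxPC-3 and 0 to 0.0570 FPKM in CFPAC-1.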
